A study of Mus musculus with 6 samples.

Results

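The genes described here encode nuclear subunits of respiratory complexes II, III and IV and of ATP synthase, which is also called complex V. They were chosen by gene symbol from a fixed list, and all 39 listed genes had a row among the 24972 gene rows of the table: 4 of complex II, 9 of complex III, 12 of complex IV and 14 of complex V. The list uses the older symbols (Atp5a1, Atp5g1 and the like) that the table uses. Subunits encoded by the mitochondrial genome are not analysed here.

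RNA came from ventricular cardiomyocytes of MX1gfp mice, which carry a green fluorescent protein reporter at the interferon-stimulated gene Mx1 in both groups. The vehicle group (3 mice) received phosphate-buffered saline and the doxorubicin group (3 mice) received 1 intraperitoneal dose of 25 mg per kg body weight. Doxorubicin, an anthracycline, is a cancer drug with known toxicity to the heart. Hearts were taken 48 hours after injection, and myocytes were enriched by gravity settling after collagenase digestion, with no sorting step described. Age and sex are not given in the labels.

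Complex II (succinate dehydrogenase) passes electrons from succinate to ubiquinone and is also an enzyme of the TCA cycle. Complex III takes electrons from ubiquinol to cytochrome c, complex IV passes them to oxygen, and the proton gradient that complexes III and IV help to build drives ATP synthesis by complex V. Heart muscle relies on this pathway for most of its ATP, and the adult heart uses muscle forms of several small complex IV subunits. Doxorubicin is known to accumulate at the inner mitochondrial membrane.

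Normalized read counts were used as deposited. The 39 genes together made up 4.26% to 5.06% of a vehicle library. They made up 3.80%, 3.31% and 2.10% of doxorubicin replicates 1, 2 and 3. The 3 doxorubicin libraries did not behave alike. Replicate 1 lay close to the vehicle libraries, with Spearman correlations across 12477 genes of 0.977 to 0.982, against 0.860 to 0.914 for replicates 2 and 3. The normalized counts summed to 7217950 to 7500390 in vehicle libraries and to 5410780 to 6498370 in doxorubicin libraries, and the number of reads behind them is unknown. Transcripts of Xist and of the Y-linked gene Ddx3y placed vehicle replicates 1 and 2 with doxorubicin replicate 2, and the other 3 libraries together.

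The labelled cell type was checked first. All 12 cardiomyocyte marker genes (contractile genes such as Myh6 and Tnnt2) were above 0 in every library, but their summed level was 739161 to 840169 normalized counts in vehicle libraries against 632686, 233260 and 195505 in the doxorubicin libraries, in the order of replicates 1, 2 and 3. The 10 macrophage markers summed to 2583 to 2791 in vehicle libraries and to 4238, 7421 and 15615 in the doxorubicin libraries. The 8 fibroblast markers summed to 6236 to 8274.5 in vehicle libraries and to 8639, 22816 and 16406 after doxorubicin, and the 8 endothelial markers to 14405 to 18988 and then 24374, 21017 and 28250. The 4 atrial markers summed to 456 to 526 in vehicle libraries and to 1426 in doxorubicin replicate 1, against 368 and 692 in replicates 2 and 3. Neutrophil markers (5 genes) summed to 10.5 to 21.7 in vehicle libraries and to 55.0, 562 and 417, and Retnlg, a neutrophil gene, was listed at 0 in all 3 vehicle libraries. By summed level, cardiomyocyte and macrophage markers were furthest from vehicle in doxorubicin replicate 3 and nearest to it in replicate 1, as the subunit values below were. Not every member followed the sums. Myh6 (33549 against 47431), Actc1, Ttn and Mybpc3 were lower in replicate 2 than in replicate 3. Mrc1 (778 against 670) and Cd163 were higher in replicate 2. The remaining markers of both lists were further from vehicle in replicate 3 than in replicate 2. Lyz2 held 6811 of the 15615 macrophage counts in replicate 3. The other sums given here had another order. The fibroblast sum was set largely by Dcn, with 3113, 18072 and 11326 in doxorubicin replicates 1 to 3. The median log2 difference of the 8 fibroblast markers was 0.29, 0.47 and 0.76 in replicates 1 to 3, against 0.24 in vehicle replicate 1. That median was largest in replicate 3 and smallest in replicate 1. The same medians were 0.58, 0.27 and 0.75 for endothelial markers and 1.83, 5.35 and 4.81 for the tested neutrophil markers. For atrial markers they were 2.04, 0.02 and 0.53. The medians of these last lists again had another order. The part of these cell types in the subunit values was not tested. In bulk RNA, fewer cardiomyocytes and less subunit RNA per cardiomyocyte cannot be told apart.

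The main comparison asked how subunit transcripts differed between doxorubicin and vehicle. The mean of every one of the 39 subunits was lower after doxorubicin, against 50.4% of all genes tested (49.6% were higher). Their log2 fold changes ran from -1.34 (Atp5g1) to -0.62 (Atp5e). The median was -0.89, where that of all 12477 genes tested was -0.0046. In 38 of the 39 every doxorubicin library lay below every vehicle library, against 22.6% of all genes tested. Relative to the mean of the vehicle libraries, the median subunit stood at 72.9%, 60.2% and 34.0% in doxorubicin replicates 1, 2 and 3. Doxorubicin replicate 1 lay below all vehicle libraries for 39 subunits (34.6% of all genes tested), replicate 2 for 38 (40.3%) and replicate 3 for 39 (43.0%). Replicate 3 was the lowest library for all 39 subunits, and replicate 1 was the highest doxorubicin library for 31 of them.

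No gene was called with all 6 libraries. At a Benjamini-Hochberg adjusted p under 0.05 in limma, 0 of the 39 subunits and 0.0% of all genes were lower, while 33 subunits had an unadjusted p under 0.05, against 19.3% of all genes in the same direction. The smallest adjusted p of a subunit was 0.0859 and the largest 0.256. Without doxorubicin replicate 1, 36 of the 39 were called lower (adjusted p from 0.000655), against 21.8% of all genes tested. With libraries weighted by their fit, limma called 30 lower and 0 higher, against 18.6% and 15.7% of all genes. The 3 subunits not called without replicate 1 were Cox6b1, Ndufa4 and Atp5e, with adjusted p of 0.0533, 0.0549 and 0.145. Without doxorubicin replicate 3 none was called, and the median over the 39 was -0.58.

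**Figure D1:**
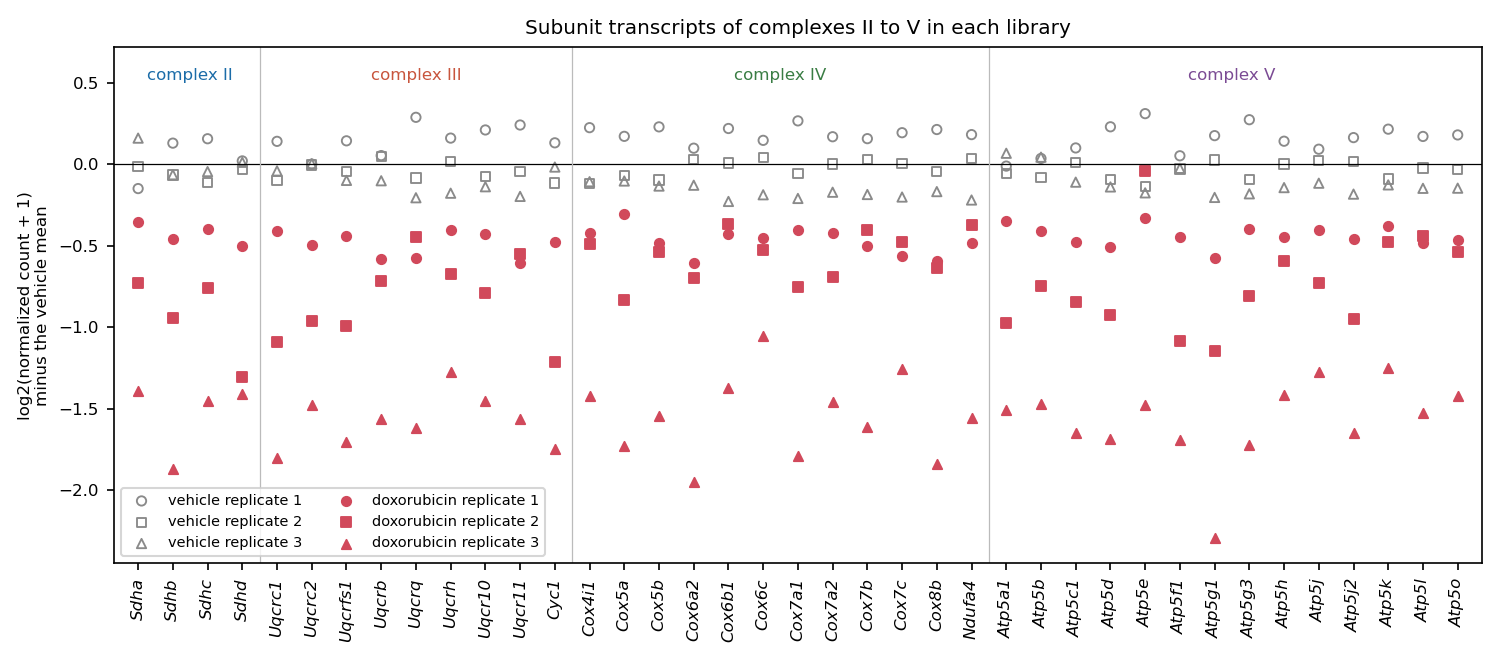
Each column is 1 subunit gene and each point 1 library, as log2(normalized count + 1) minus the mean of the 3 vehicle libraries. Open grey symbols are vehicle and filled red symbols doxorubicin (circle, square and triangle for replicates 1, 2 and 3). The triangles of doxorubicin replicate 3 are the lowest point in all 39 columns, and Atp5e is the column in which a doxorubicin square reaches the vehicle points.

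The 4 subunits of complex II were each lower in every doxorubicin library than in any vehicle library, against 22.6% of all genes tested. Sdha (chromosome 13, 74322255 to 74350240, GRCm38), the flavoprotein that oxidises succinate, had 11619, 12777 and 14400 normalized counts in vehicle mice, in replicate order, and 10068, 7787 and 4914 in those from doxorubicin-treated mice. Sdhb (chromosome 4, 140961271 to 140979198), the iron-sulfur subunit, had 7680, 6704 and 6714 in vehicle and 5097, 3649 and 1921 in doxorubicin libraries. In both, doxorubicin replicate 1 was nearest to vehicle and replicate 3 furthest from it. Their log2 fold changes were -0.82 (SE 0.32, limma adjusted p 0.118) and -1.09 (SE 0.35, adjusted p 0.0878).

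The other pair of complex II genes encodes the membrane anchors that bind haem and ubiquinone. Sdhc (chromosome 1, 171129157 to 171150640) had 4488, 3724 and 3902 normalized counts in vehicle libraries and 3055, 2380 and 1467 in doxorubicin libraries, which is -0.87 on the log2 scale (SE 0.28, limma adjusted p 0.0878). Sdhd (chromosome 9, 50596340 to 50603849) had 3854, 3712 and 3831 in vehicle libraries and 2680, 1535 and 1428 in doxorubicin libraries. Sdhd differed from the other 3 in that doxorubicin replicates 2 and 3 were nearly equal, at 40.4% and 37.6% of the vehicle mean. In the fit without doxorubicin replicate 1 it was at -1.36 with an adjusted p of 0.000655, the smallest of the 39, and its vehicle mean was 3799 ± 76.1 (SD, n = 3).

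In complex III all 9 subunits were lower, by a median of -0.95 on the log2 scale (range -1.15 to -0.78). Uqcrc1 (chromosome 9, 108936648 to 108949641), a core subunit, had 10849, 9177 and 9567 normalized counts in vehicle libraries and 7400, 4613 and 2821 in doxorubicin libraries. Cyc1 (chromosome 15, 76343513 to 76346260), which encodes the haem protein cytochrome c1, had 7193, 6062 and 6488 against 4707, 2826 and 1959. Uqcrh (chromosome 4, 116066965 to 116075070), the small hinge protein, had 4946, 4475 and 3912 against 3342, 2778 and 1825. The groups of all 3 genes were apart, and Cyc1 had the most negative log2 fold change of the complex (-1.15, SE 0.32, limma adjusted p 0.0859) and Uqcrh the least (-0.78, SE 0.26, adjusted p 0.0892).

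The members of complex III fell into 2 sets that differed in doxorubicin replicate 2, a division made after the values were seen. The core and redox subunits (Uqcrc1, Uqcrc2, Cyc1 and the Rieske protein Uqcrfs1) had median log2 differences from the vehicle mean of -0.46, -1.04 and -1.73 in doxorubicin replicates 1 to 3. The 5 small subunits (Uqcrb, Uqcrq, Uqcrh, Uqcr10 and Uqcr11) had -0.58, -0.67 and -1.56. The core set was therefore the lower one in replicates 2 and 3 and the higher one in replicate 1. Their transcripts also differ in length, at 1363 to 1896 bases for the core set and 405 to 547 for the small set.

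In complex IV all 12 subunits were lower and the groups were apart in each, against 22.6% of all genes tested. In limma 9 of the 12 had an unadjusted p under 0.05, against 19.3% of all genes in the same direction. Cox6a2 (chromosome 7, 128205435 to 128206366), the heart and muscle form of a small regulatory subunit, had 17191, 16380 and 14686 normalized counts in vehicle libraries and 10552, 9886 and 4152 in doxorubicin libraries. It had the most negative log2 fold change of the complex, -1.08 (SE 0.40, limma adjusted p 0.105). Cox6c (chromosome 15, 35931976 to 35938246), a small structural subunit, had the least negative, -0.68 (SE 0.24, adjusted p 0.0967), from 6189, 5746 and 4909 to 4090, 3881 and 2686. The smallest p of the complex belonged to Cox7a2 (chromosome 9, 79755241 to 79771422), the general form of subunit 7a, with 2910, 2592 and 2298 against 1930, 1604 and 940 (-0.86, SE 0.28, adjusted p 0.0878). The 3 genes thus differed in the size of the difference and shared the order of the doxorubicin libraries.

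Cox6a2, Cox7a1 and Cox8b are heart and muscle isoforms, and all 3 lie on chromosome 7 in the mouse. Cox7a1 (30184171 to 30186030) had 5924, 4733 and 4258 normalized counts in vehicle libraries and 3716, 2927 and 1424 in doxorubicin libraries. Cox8b (140898942 to 140900446) had 5114, 4272 and 3927 against 2926, 2839 and 1231. In doxorubicin replicate 3 they were the 3 lowest of the complex, with a median difference of -1.84 on the log2 scale against -1.46 for the other 9 subunits. In replicates 1 and 2 the medians were closer, at -0.59 and -0.70 against -0.45 and -0.49.

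The isoform pairs allow a comparison within each library, because a library's scale factor cancels in the ratio. A correction that differs by gene or length would not cancel, and whether the deposited values hold one is unknown. The ratio of Cox6a2 to its general form Cox6a1 was 18.9, 22.0 and 19.4 in vehicle libraries and 14.8, 17.0 and 8.03 in doxorubicin libraries. The ratio of Cox8b to Cox8a was 5.03, 5.05 and 4.99 in vehicle libraries and 4.18, 4.49 and 2.34 in doxorubicin libraries. Both ratios were lower in every doxorubicin library than in any vehicle library, on the log2 scale by a mean difference of -0.67 and -0.51. The exact two-sided permutation p was 0.10 for each, which is the smallest that 3 libraries against 3 allow, and 0.175 after Benjamini-Hochberg adjustment over 7 pairs. Without doxorubicin replicate 3 the differences were -0.34 and -0.21, and without replicate 1 they were -0.78 and -0.63.

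The general forms were lower too, but by less. Cox6a1 (chromosome 5, 115345652 to 115348958) had 911, 743 and 756 normalized counts in vehicle libraries and 715, 582 and 517 in doxorubicin libraries (log2 fold change -0.42, SE 0.17, limma adjusted p 0.132). Cox8a (chromosome 19, 7215158 to 7217616) had 1017, 845 and 787 against 699, 633 and 525 (-0.51, SE 0.17, adjusted p 0.0913). General isoforms are made by most cell types. The summed macrophage, neutrophil, fibroblast and endothelial markers were higher in each doxorubicin library than in any vehicle library. Groups were apart and higher for 9 of 10 macrophage and 3 of 4 tested neutrophil markers, against 19.2% of all genes tested. For fibroblast and endothelial markers this held for 3 of 8 and 5 of 8. Col3a1 (log2 fold change -0.42) and Kdr (-0.26) were lower. The part of these cell types in the ratios was not tested.

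The third heart isoform did not follow this pattern beyond the spread between libraries. The ratio of Cox7a1 to Cox7a2 was 2.04, 1.83 and 1.85 in vehicle libraries and 1.92, 1.83 and 1.52 in doxorubicin libraries, a mean log2 difference of -0.12 (exact permutation p 0.40, adjusted p 0.40). Cox4i1 (chromosome 8, 120668225 to 120674209), the main form of subunit 4, had 15001, 11826 and 11920 normalized counts in vehicle libraries and 9586, 9133 and 4790 in doxorubicin libraries. Its low-oxygen form Cox4i2 (chromosome 2, 152753916 to 152765039) had 104, 73.8 and 59.3 against 118, 93.0 and 90.1, with overlapping groups. The ratio of Cox4i1 to Cox4i2 was 144 to 201 in vehicle libraries and 81.5, 98.2 and 53.2 in doxorubicin libraries (mean log2 difference -1.15, exact permutation p 0.10, adjusted p 0.175).

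**Figure D2:**
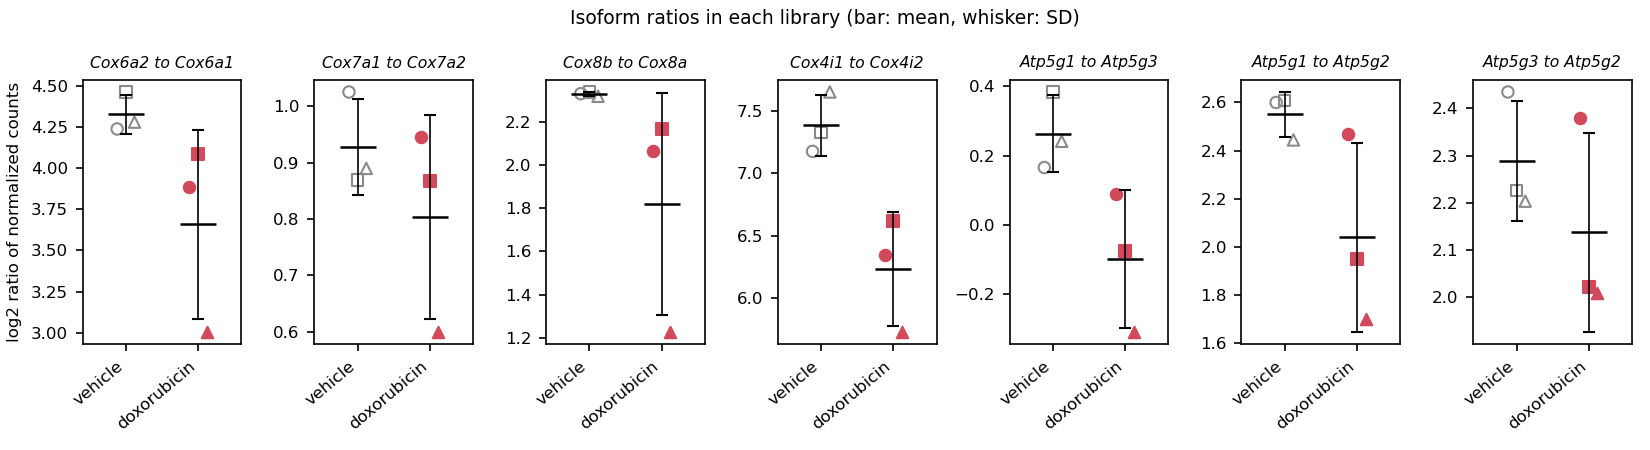
Each panel shows the log2 ratio of 2 isoforms' normalized counts in each library, with open grey symbols for vehicle and filled red symbols for doxorubicin (circle, square and triangle for replicates 1, 2 and 3). Bars are means, whiskers are SD over 3 libraries, and each panel has its own axis that does not start at 0. For Cox8b to Cox8a the vehicle points lie between 2.32 and 2.34 and the doxorubicin points at 2.06, 2.17 and 1.23.

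In complex V all 14 subunits were lower, by a median of -0.91 on the log2 scale. Atp5b (chromosome 10, 128083307 to 128090388), the catalytic beta subunit, had 45809, 42280 and 46060 normalized counts in vehicle libraries and 33666, 26648 and 16114 in doxorubicin libraries. Its log2 fold change was -0.88 (SE 0.43, limma adjusted p 0.184), and the groups were apart. Atp5d (chromosome 10, 80138698 to 80145828), the delta subunit of the central stalk, had the smallest p of the complex, with 6068, 4855 and 4698 against 3637, 2722 and 1605 (-1.04, SE 0.31, adjusted p 0.0859).

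Atp5e and Atp5g1 were the extremes of the 39. Atp5e (chromosome 2, 174461075 to 174464101), the epsilon subunit of the central stalk, had 3449, 2530 and 2462 normalized counts in vehicle libraries and 2211, 2701 and 997 in doxorubicin libraries. It was the 1 subunit whose groups overlapped, because doxorubicin replicate 2 held more than vehicle replicates 2 and 3 (log2 fold change -0.62, SE 0.37, limma adjusted p 0.256). Atp5g1 (chromosome 11, 96072793 to 96075694) had 14346, 12941 and 11029 against 8541, 5732 and 2593, and in doxorubicin replicate 3 it stood at 20.3% of the vehicle mean, the lowest of any subunit. Its log2 fold change was -1.34 (SE 0.43, adjusted p 0.0878), and -1.72 (adjusted p 0.00602) without doxorubicin replicate 1.

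Atp5g1, Atp5g2 and Atp5g3 encode the same mature c subunit, which forms the rotor ring in the membrane, and differ in the targeting peptide that is cut off on import. Atp5g3 (chromosome 2, 73908447 to 73912464) had 12792, 9923 and 9333 normalized counts in vehicle libraries and 8032, 6034 and 3210 in doxorubicin libraries. Atp5g2 (chromosome 15, 102662868 to 102671047), which is not among the 39, had 2366, 2122 and 2026 against 1543, 1485 and 797. The ratio of Atp5g1 to Atp5g3 counts, not per length, was 1.12, 1.30 and 1.18 in vehicle libraries and 1.06, 0.950 and 0.808 in doxorubicin libraries. Its mean log2 difference was -0.36 with groups apart (exact permutation p 0.10, adjusted p 0.175). For Atp5g1 to Atp5g2 and Atp5g3 to Atp5g2 the differences were -0.51 and -0.15, with overlapping groups (exact permutation p 0.20 and 0.30, adjusted p 0.280 and 0.350). Reads from the shared coding sequence may be split among the 3 genes in a way that the sources used here do not describe, and many short respiratory chain genes also have processed pseudogenes.

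Complex V was divided into parts of the enzyme after the values were seen. The 5 subunits of the F1 head and central stalk (Atp5a1, Atp5b, Atp5c1, Atp5d and Atp5e) had a median log2 fold change of -0.94, and the 4 of the peripheral stalk (Atp5f1, Atp5h, Atp5j and Atp5o) of -0.81. The 3 small membrane subunits (Atp5j2, Atp5k and Atp5l) had -0.82. The c ring pair, with -1.16, was the lowest set, and it holds the extreme Atp5g1.

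The second comparison set the 4 complexes beside one another. Their median log2 fold changes were -0.97 for complex II, -0.95 for complex III, -0.85 for complex IV and -0.91 for complex V, so the largest gap between 2 complexes was 0.12 (II to IV). That gap was -0.25 under quantile normalization, -0.23 with library weights and -0.23 with the Xist and Y-linked class as a covariate, so its size depends on these settings. Members of 1 complex differed among themselves by as much, with SDs of the log2 fold change of 0.14, 0.12, 0.13 and 0.18 over the members of complexes II to V. In doxorubicin replicate 1 the 4 medians lay between -0.48 and -0.43 and in replicate 3 between -1.56 and -1.43. Doxorubicin replicate 2 was the library in which the median of a complex stood apart, with complex IV at -0.53 and the others at -0.85, -0.79 and -0.78. The members overlapped there. Those of complex IV ran from -0.83 to -0.37, and those of complexes II, III and V from -1.31 to -0.73, -1.22 to -0.45 and -1.15 to -0.04. The order of the complexes was not the same in the 3 libraries: complex II was the highest in replicates 1 and 3 and the lowest in replicate 2. The gap between complexes II and IV, -0.12 in the fit with all libraries, was -0.21 without doxorubicin replicate 1 and 0.07 without replicate 2. No difference between complexes exceeded its spread over the doxorubicin libraries except that of complexes III and V (-0.04, SD 0.02 over 3 libraries), which changed sign when vehicle replicate 2 or doxorubicin replicate 1 was left out (0.01 and 0.04).

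**Figure D3:**
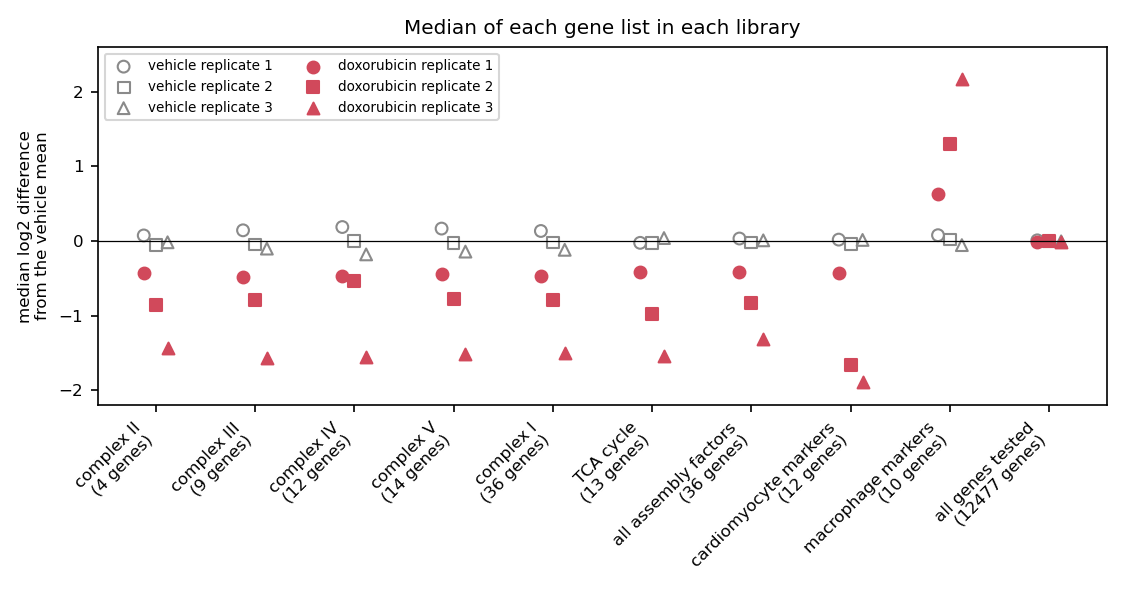
Each point is the median, over the genes of a list, of the log2 difference from the vehicle mean in 1 library (open grey for vehicle, filled red for doxorubicin, with circle, square and triangle for replicates 1, 2 and 3). The 4 complexes, complex I, the TCA cycle and the assembly factors show the same order of doxorubicin libraries, with replicate 3 lowest. Cardiomyocyte markers are lower than the complexes in replicates 2 and 3, at -1.66 and -1.88, macrophage markers are higher in all 3, and all genes tested lie close to 0.

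Complex I and the TCA cycle were the nearest comparison lists. All 36 nuclear complex I subunits were lower, with a median log2 fold change of -0.92, and all 13 TCA cycle enzymes were lower, with a median of -0.98. The median in doxorubicin replicates 1 to 3 was -0.47, -0.79 and -1.50 for complex I and -0.42, -0.98 and -1.54 for the TCA cycle. Complexes II, III and V differed from complex I by -0.06 to 0.07 in the doxorubicin libraries, and the TCA cycle was furthest from complex IV in replicate 2. The extremes were Ndufb10 (-1.47) and Ndufs5 (-0.25) in complex I, and Idh3a (-1.22) and Suclg2 (-0.76) in the TCA cycle. With all libraries 0 genes of either list were called. In limma 33 and 13 had an unadjusted p under 0.05, against 19.3% of all genes in the same direction. Without doxorubicin replicate 1, limma called 33 of 36 and 13 of 13 lower, against 21.8% of all genes tested.

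The complexes were also set against the median of the cardiomyocyte markers. In doxorubicin replicate 1 the cardiomyocyte median was -0.43 on the log2 scale, and the complexes lay between -0.05 and 0.00 from it. In replicate 2 complexes II, III, IV and V lay 0.81, 0.87, 1.13 and 0.88 above it, and in replicate 3 they lay 0.45, 0.32, 0.33 and 0.36 above it. In vehicle libraries the same difference ran from -0.19 to 0.17. The difference from vehicle was thus smaller for the subunit transcripts than for the median cardiomyocyte marker in the 2 doxorubicin libraries furthest from vehicle. The markers themselves ranged from Actc1 at -2.10 to Actn2 at -0.78 in log2 fold change, and Tnnt2 (-0.78) and Pln (-0.79) were also less negative than every complex median. These values were not tested.

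Assembly factors build the complexes and are not part of them. All 36 tested assembly factors were lower, with a median log2 fold change of -0.90 against -0.89 for the 39 subunits. With all libraries 0 of the 36 were called. In limma 33 had an unadjusted p under 0.05, against 19.3% of all genes in the same direction. Without doxorubicin replicate 1, 29 were called lower, against 21.8% of all genes tested. By complex the medians were -0.86 for complex II, -1.06 for complex III, -0.83 for complex IV and -0.90 for complex V. Cmc2, a copper-handling factor of complex IV, had the most negative value, -1.47, and Cox18, an insertase for a complex IV subunit, the least negative, -0.11. For complex II the extremes were Sdhaf3 (-1.45) and Sdhaf1 (-0.42), for complex III Uqcc1 (-1.41) and Uqcc3 (-0.49), and for complex V Atpaf1 (-1.26) and Atpaf2 (-0.74). Of the 12 further subunits and isoforms outside the 39, 9 were tested and 8 were lower, from Usmg5 at -0.87 to Cox4i2 at 0.37. Their median was -0.51. Atpif1, which encodes the inhibitor of ATP hydrolysis by complex V, was at -0.54 on the log2 scale (SE 0.26, limma adjusted p 0.178) with overlapping groups.

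Levels were compared between genes per length of transcript. Whether the deposited values already hold a correction for length is unknown, and if they do, the values per kb would mean something else. Per kb of transcript, the highest vehicle levels were those of Cox6a2 (23656 ± 1880), Atp5b (23338 ± 1103) and Atp5g1 (21429 ± 2793 normalized counts per kb, SD, n = 3), which do not differ beyond their spread. Cox4i1 (17337 ± 2425), Uqcrq (15250 ± 2809) and Atp5g3 (14962 ± 2592) followed. The lowest was Sdhc (1273 ± 126), and complex II as a whole was the lowest complex, with a median of 3773 against 5967 for complex III, 10856 for complex IV and 9431 for complex V. After doxorubicin the medians were 2072, 3210, 6289 and 5311, in the same order. Cox6a2 (12054 ± 5174) and Atp5b (13297 ± 4611) were still the highest with Cox4i1 (10519 ± 3555) and Atp5g1 (9433 ± 4992). The length is that of the shortest principal transcript of a gene, or of its shortest RefSeq transcript where no principal one qualified. For 5 of the 39 a longer principal or RefSeq transcript is listed. For Atp5g1 that is 4715 bases where 596 was used and for Uqcrq 1521 where 405 was used, so the places of both in this order depend on the transcript chosen.

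**Figure D4:**
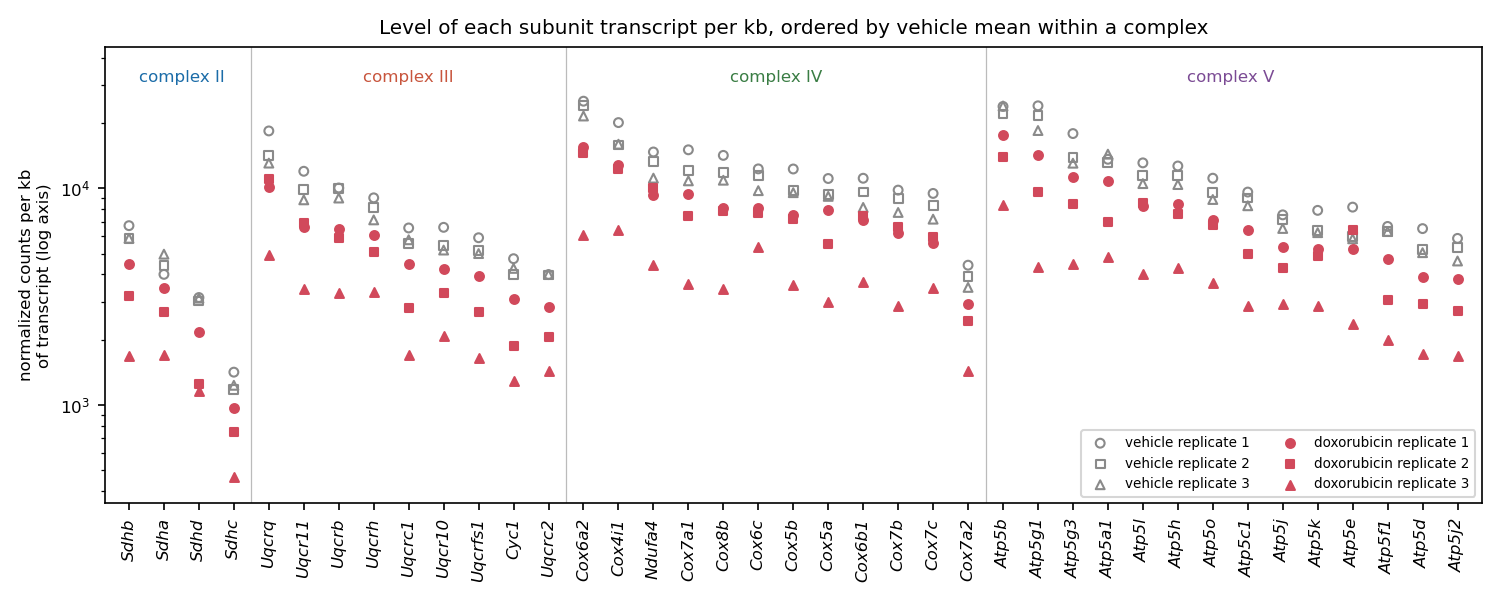
Points are normalized counts per kb of transcript in each library on a log axis, with genes ordered by vehicle mean within each complex (open grey for vehicle, filled red for doxorubicin, with circle, square and triangle for replicates 1, 2 and 3). Complex II genes reach at most 6159 per kb on average in vehicle libraries, whereas Cox6a2 and Atp5b reach 23656 and 23338.

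The subunit values were also set against transcript length. In vehicle replicate 1 the shorter transcripts were the higher ones relative to the vehicle mean, with a correlation of -0.71 between the log2 difference and log2 length over the 39 subunits. In vehicle replicates 2 and 3 the correlation was -0.14 and 0.82. These are descriptions over genes that share the libraries, and the 3 vehicle values of a gene are tied through their mean. Among doxorubicin libraries the correlation was 0.29, -0.54 and -0.04 in replicates 1 to 3. In replicate 2 the 19 transcripts of up to 700 bases had a median difference of -0.59 and the 20 longer ones -0.88, while in replicate 1 the medians were -0.45 and -0.45 and in replicate 3 -1.53 and -1.58. Complex IV, the complex whose median stood apart in replicate 2, has transcripts of 360 to 1001 bases (median 631.5) and complex II of 1142 to 3171. Complex III has a shorter median, 547 bases, and was at -0.79 in that library. Its small subunits of 405 to 547 bases were at -0.67, and both values lay below complex IV at -0.53. The small membrane subunits of complex V, of 371 to 955 bases, were at -0.48, and Atp5e, of 421 bases, was at -0.04. Those values lay above complex IV. The part of length in that difference was not tested. Over all 12055 tested genes with a length, Spearman's rho was -0.28, 0.10 and 0.20 in vehicle replicates 1, 2 and 3 and 0.16, 0.04 and 0.14 in the doxorubicin libraries.

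**Figure D5:**
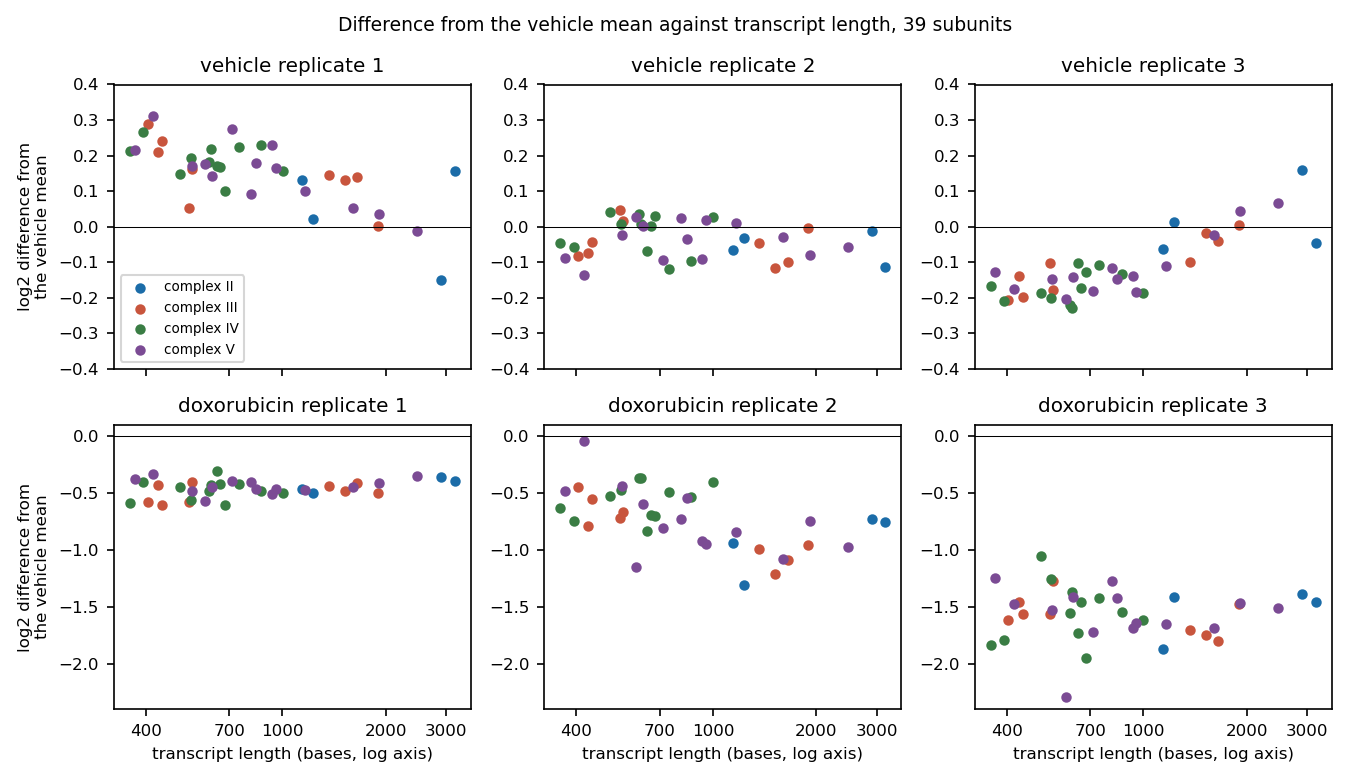
Each panel is 1 library and each point 1 of the 39 subunits, coloured by complex, with transcript length on a log axis and the log2 difference from the vehicle mean on the vertical axis (the upper and lower rows have different ranges). The points slope down in vehicle replicate 1 (r -0.71) and doxorubicin replicate 2 (r -0.54), slope up in vehicle replicate 3 (r 0.82), and are nearly flat in doxorubicin replicate 3 (r -0.04).

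Genes of the respiratory chain are known targets of the transcription factors NRF1, GABP, YY1 and the ERR receptors, and the members were lower together, so their promoters were searched. RefSeq windows (GRCm38.p6) from 250 bases before to 50 after the transcription start were matched for 30 of the 39 genes. The 9 without an entry were Sdhc, Uqcrc2, Uqcrb, Uqcrq, Cyc1, Cox4i1, Cox6a2, Cox6c and Atp5a1. Motifs of 7 letters were searched on both strands: GCGCATG (the NRF1 core), CCGGAAG (GABP, shared with other ETS factors), AAGGTCA (ERR, shared with other nuclear receptors) and AAGATGG (YY1). The NRF1 letters were found in 6 of 30 promoters (20.0%), against 7.09% of the 9931 promoters of genes tested and 4.04% of all 27025. The GABP letters were found in 9 (30%, against 18.2% and 9.12%), the ERR letters in 5 (16.7%, against 3.00% and 4.66%) and the YY1 letters in 3 (10.0%, against 7.22% and 6.48%). Among 32 promoters of complex I genes, the shares were 15.6% for NRF1, 12.5% for GABP, 9.38% for ERR and 21.9% for YY1. Of the 30 promoters of complexes II to V, 15 held none of the 4. A match describes these letters in this window and is not a measured binding site.

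One promoter from each complex is printed to show how the matches lie, chosen after the matches were seen from those with the most kinds of motif in their complex. Capitals mark matches to the 4 motifs on either strand, and each runs 5′ to 3′ on the gene's own strand. The 4 windows are Sdhb at chr4:140961021-140961320 on the plus strand, Uqcr11 at chr10:80406772-80407071 on the minus strand, Cox5b at chr1:36691237-36691536 on the plus strand and Atp5k at chr5:108434350-108434649 on the minus strand.
Sdhb: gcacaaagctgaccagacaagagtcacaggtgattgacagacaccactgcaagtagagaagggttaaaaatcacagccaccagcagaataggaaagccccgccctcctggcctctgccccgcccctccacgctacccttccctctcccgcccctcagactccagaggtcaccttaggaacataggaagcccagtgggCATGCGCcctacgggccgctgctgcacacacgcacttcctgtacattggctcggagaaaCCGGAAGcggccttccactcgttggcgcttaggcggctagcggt
Uqcr11: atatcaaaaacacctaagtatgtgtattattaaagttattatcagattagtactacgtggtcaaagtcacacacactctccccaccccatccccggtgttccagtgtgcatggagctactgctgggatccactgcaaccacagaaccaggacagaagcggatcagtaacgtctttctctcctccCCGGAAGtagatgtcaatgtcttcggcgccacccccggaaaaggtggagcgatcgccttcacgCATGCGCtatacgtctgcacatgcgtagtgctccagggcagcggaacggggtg
Cox5b: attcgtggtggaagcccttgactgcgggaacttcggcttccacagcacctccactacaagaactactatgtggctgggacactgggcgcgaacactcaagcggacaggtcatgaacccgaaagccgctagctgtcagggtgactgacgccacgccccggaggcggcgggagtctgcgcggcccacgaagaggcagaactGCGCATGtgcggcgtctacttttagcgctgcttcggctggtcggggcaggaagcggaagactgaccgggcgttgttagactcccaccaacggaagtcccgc
Atp5k: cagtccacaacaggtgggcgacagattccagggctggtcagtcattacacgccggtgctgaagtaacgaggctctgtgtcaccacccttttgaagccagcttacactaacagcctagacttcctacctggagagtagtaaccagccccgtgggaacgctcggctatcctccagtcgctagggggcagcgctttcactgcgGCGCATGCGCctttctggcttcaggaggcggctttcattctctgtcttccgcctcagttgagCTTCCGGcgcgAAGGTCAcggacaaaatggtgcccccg

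Sdhb holds NRF1 letters 53 bases before the start and GABP letters 6 bases after it. Uqcr11 holds GABP letters 66 bases and NRF1 letters 3 bases before the start, and Cox5b holds NRF1 letters 51 bases before it. Atp5k holds the NRF1 letters on both strands, overlapping at 50 and 47 bases before the start, with GABP and ERR letters 12 and 23 bases after it. The log2 fold changes of these 4 genes were -1.09, -0.91, -0.86 and -0.70. The median was -0.86 over the 15 genes with at least 1 motif and -0.89 over the 15 without.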

How the data were processed

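RNA-seq of 6 libraries (3 vehicle, 3 doxorubicin, 1 mouse each) was used, with groups and replicate numbers taken from the sample titles. Per the labels, reads were aligned to mm10 with RefSeq genes in BaseSpace, and the submitters' processing notes name STAR 2.6.1a and Salmon. The authors deposited a normalized signal, in read counts per gene that are not whole numbers and never below 0, with 1 column per library. How they counted, treated strand, normalized and filtered is not recorded in the labels or headers. The low values were not whole multiples of 1 step, so no count test was used.

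Genes with a mean of at least 10 were tested on log2(value + 1) with limma 3.58.1 (R 4.3.3, eBayes with trend, two-sided, Benjamini-Hochberg over 12477 genes, threshold 0.05). A fold change on this scale understates low genes; none of the 39 is low, and all passed this filter. The test was checked on simulated data drawn with the spread of the vehicle libraries. The spread among the doxorubicin libraries was not simulated, so the check does not cover it. Isoform ratios used exact permutation tests (scipy 1.17.1). Coordinates and promoters are RefSeq GRCm38.p6, the assembly of mm10. Lengths are from GENCODE M21. Marker lists for lymphocytes, mural and erythroid cells were also computed: no lymphocyte gene (0 of 6) passed the filter, the mural median log2 fold change was -0.09 and the erythroid median -0.85, with 2.43 in doxorubicin replicate 1. Genes named with every library's value were the complex II subunits; in each other complex the highest, the most and least different and the smallest p, with Atp5b; the isoform pairs; and any subunit with overlapping groups. Of the comparison lists, the extremes and Atpif1, Cycs and Slc25a4 were named. Subgroups within complexes, the length split and the printed promoters were chosen after values were seen. The members and lists were chosen with earlier results of these data known. Protein sequences were not used here.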

Additional observations from a re-analysis of the deposited data

How the results depend on the processing

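All 39 subunits stayed lower in each of the 18 alternatives to the fit. With 6 libraries at equal weight 0 were called under either other pseudocount, no filter, a minimum mean of 50, the 3 other scalings, no trend, robust estimation or the covariate for the Xist and Y-linked class; the cause was not tested where calls changed. Library weights gave 30 subunits lower, and 2318 genes lower and 1954 higher over all genes. The weights were 0.277, 1.13 and 0.425 for doxorubicin replicates 1 to 3 and 1.47, 3.24 and 1.59 for vehicle replicates 1 to 3. Leaving out 1 library gave 0 to 36 subunits, 0 to 2718 genes lower and 0 to 2409 higher, with the upper ends without doxorubicin replicate 1. Scaling to equal totals moved the median of all genes to 0.30 and that of the subunits to -0.59. Under quantile normalization that median was -0.53, and 21 subunits had groups apart instead of 38. The share of all genes with groups apart under quantile normalization is not given here. Whether the lower count is particular to the subunits therefore cannot be told. The complex II to V gap was then -0.19, the III to V gap -0.17, the II to IV gap -0.25 and the III to IV gap -0.23. The III to V gap was -0.019 with library weights and 0.00221 with the class covariate. Leaving out 1 library, it ran from -0.103 to 0.0358 (without doxorubicin replicate 1), with 0.0145 without vehicle replicate 2, the II to III gap from -0.0923 to 0.133, and the II to V gap from -0.114 to 0.0324. Same-numbered libraries did not deviate together (correlations of -0.13, 0.03 and -0.09). With 3 libraries per group these values cannot exclude a shared batch, and the labels give none. With the replicate block 0 subunits and 0 genes were called, as without it. Leaving out 1 library kept the sign of all 7 isoform ratios.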

Other observations

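Genes of the mobile carriers and of the transporters that serve ATP synthase differed in the same direction as the complexes. Cycs, which encodes the cytochrome c that links complexes III and IV, had 10958, 10420 and 9532 normalized counts in vehicle mice, in replicate order, and 7334, 4616 and 3135 in the doxorubicin libraries (log2 fold change -1.12, SE 0.33, limma adjusted p 0.0859). All 13 tested genes of electron carriers, which include those of ubiquinone synthesis, were lower, from Pdss1 at -1.64 to Coq10b at -0.10, with a median of -1.06. Slc25a4, the heart form of the carrier that exchanges ADP for ATP, had 43556, 44494 and 44652 against 30899, 22908 and 15138 (-1.0, SE 0.42, adjusted p 0.133). The 3 ATP and phosphate carriers ran from Slc25a3 at -1.01 to Slc25a5 at -0.77. With all libraries limma called 0 genes of either list. An unadjusted p under 0.05 was found for 12 and 3, against 19.3% of all genes in the same direction. Without doxorubicin replicate 1 limma called 12 of the 13 and 3 of the 3 lower, against 21.8% of all genes tested.

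Among the libraries that held Y-linked transcripts, the medians of complexes II, III, IV and V were -0.88, -0.86, -0.61 and -0.84 in doxorubicin replicate 2 relative to vehicle replicates 1 and 2. Within those with Xist, doxorubicin replicates 1 and 3 relative to vehicle replicate 3, they were -1.0, -0.97, -0.84 and -0.87. These classes hold a single doxorubicin and a single vehicle library, so the values have no test.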
